A study of Homo sapiens with 4 samples.

Results

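The genes described here are 38 genes of the cellular response to low oxygen and of glycolysis, listed by symbol and read from a 1-colour expression array study of HuH7, a human hepatocellular carcinoma cell line. Of the 38, 35 had a probe that the platform annotation assigns to that gene alone, among 18417 genes measured in this way. CA9 and SLC16A3 matched no probe of the annotation, and PGAM1 is listed only by probes that also name PGAM4, so these 3 genes are named without values. For a gene with several probes the brightest was taken by its mean of all arrays, which concerned TPI1 alone among the members.

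The study compared 2 cultures of HuH7 carrying a negative control short hairpin RNA (shRNA) with 2 carrying shRNA against MKL1 and MKL2. MKL1 and MKL2, today named MRTFA and MRTFB, encode coactivators of serum response factor (SRF) that respond to the state of the actin cytoskeleton. In all 4 samples the hairpins were delivered by lentivirus from the pLKO.1 vector, the infected cells were selected with puromycin for 7 days, the medium held 10% serum, and the cells were under 10 passages. The labels mention no change of oxygen. They call the replicates biological, without saying whether these came from separate infections or whether the lines were clonal. The p-values therefore measure the spread between these arrays, which may be technical, and the number of arrays limits the precision.

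Cells sense oxygen through the hypoxia-inducible factors (HIFs). When oxygen is plentiful, prolyl hydroxylases of the EGLN family mark the HIF alpha subunits, which the VHL ubiquitin ligase then removes. When oxygen falls, the alpha subunits accumulate, pair with ARNT and bind hypoxia response elements in their target genes. The targets include the growth factor VEGFA, glucose transporters and enzymes for nearly every step from glucose to lactate, and many tumour cells keep this programme active. HIF activity is set largely through the stability of the alpha proteins, which an RNA array does not measure.

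The arrays read log2 expression, with medians between 5.68 and 5.73 per array and lower quartiles between 3.99 and 4.02. No background level is known, and levels of different genes are not compared. Where a gene is set against the median or quartile of all probes, this is only a rough guide to how bright its probe was. The probe listed for MRTFA, together with RBM15, read 7.77 and 7.80 in the controls and 6.81 and 6.91 in the knockdown arrays, or -0.93 in log2 (SE 0.096, limma adjusted p = 0.0404, with this probe added to the genes tested). MRTFB read 7.20 and 7.22 in the controls and 6.84 and 7.11 in the knockdown arrays, or -0.23 (SE 0.12, limma adjusted p = 0.448). A lower level of MRTFB was thus not established by this test. SRF lay at -0.44 (SE 0.113, limma adjusted p = 0.188). Among 10 measured markers of adult, fetal or tumour liver cells, ALB (12.22 in control, 12.37 in knockdown), AFP (12.22 and 11.91) and GPC3 (11.49 and 11.69) read above the array medians. CPS1, the entry enzyme of the urea cycle, had the smallest p of these markers. It read 5.39 and 5.34 in the controls, below the array medians, and 6.22 and 6.14 in knockdown cells (log2 difference 0.81, SE 0.095, limma adjusted p = 0.0563). Of the 10, 4 had a higher and 6 a lower mean, and none passed the test over all genes. Of 9 measured markers of blood, endothelial and stromal cells none passed either, and those with the smallest p were PTPRC, CD3E and VWF, at log2 differences of 0.30, 0.15 and 0.18. PTPRC, at 2.79 in control and 3.09 in knockdown cells, read below the lower quartile of the arrays, and CD3E (4.48 and 4.63) and VWF (4.69 and 4.87) below their medians.

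NDRG1 rose in MKL1/2 knockdown cells, and most other members read slightly higher without passing the test over all genes. The list was chosen with earlier results of these data known, so its shares beside all genes are a description and no test. Of the 35 measured members, 28 had a higher mean in the knockdown arrays (80%), against 52% of all genes tested. The median log2 difference of the members was 0.12, with an interquartile range from 0.042 to 0.23, beside a median of 0.0082 over all genes. NDRG1 alone passed a limma adjusted p of 0.05, a rule that called 0.174% of all genes. At an unadjusted p under 0.05 in limma, 7 members were higher (20%) and none lower, where 6.25% of all genes were higher and 8.04% lower. The 7 were NDRG1, VEGFA, CA12, LDHA, PKM, ALDOC and PGK1. Both knockdown arrays lay above both controls for 20 members (57.1%), against 22.5% of all genes, and both lay below for 2 members, ARNT and GAPDH (5.71%), against 23% of all genes. With each array's median set equal these counts were 15 above and 4 below, against 17.8% and 28.4% of all genes. On bulk RNA of a culture, a higher level in each cell and a larger share of cells with the transcript cannot be told apart.

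**Figure D1:**
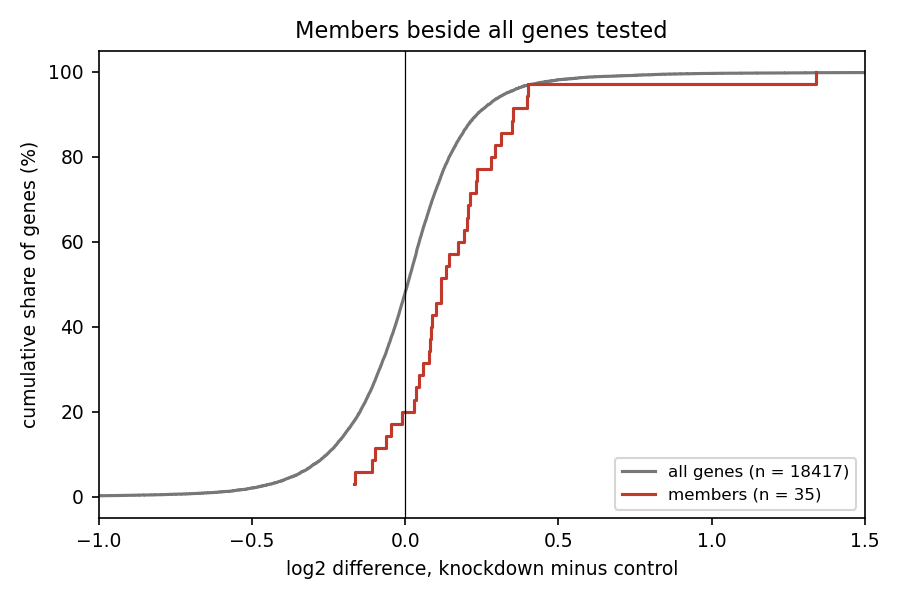
Cumulative share of genes (vertical axis, percent) by log2 difference between knockdown and control means (horizontal axis, drawn from -1 to 1.5), for the 35 measured members (red) and the 18417 genes tested (grey). The members' curve lies to the right of the curve of all genes, with medians of 0.12 and 0.0082, and ends with NDRG1 at 1.34. The list was chosen with earlier results of these data known.

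Leaving out either control array lowered the counts at an unadjusted p, both among the members and among all genes. The VEGFA difference was 0.40 without control replicate 1 and 0.30 without control replicate 2. For NDRG1 these differences were 1.38 and 1.30. The number of members with a higher mean stayed between 27 and 30 with any 1 array left out. Of the 9 markers of other cell types, 8 also had a higher mean, with a median log2 difference of 0.097. Their log2 values summed to 46.6 and 46.8 on the control arrays and to 47.9 and 47.04 on the knockdown arrays, and their part in the members' counts was not tested. With a median standard error of 0.0996 for a member, the smallest absolute log2 difference among the 32 genes that passed over all genes was 0.95, so that shifts of the size seen in most members lay below what was called.

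**Figure D2:**
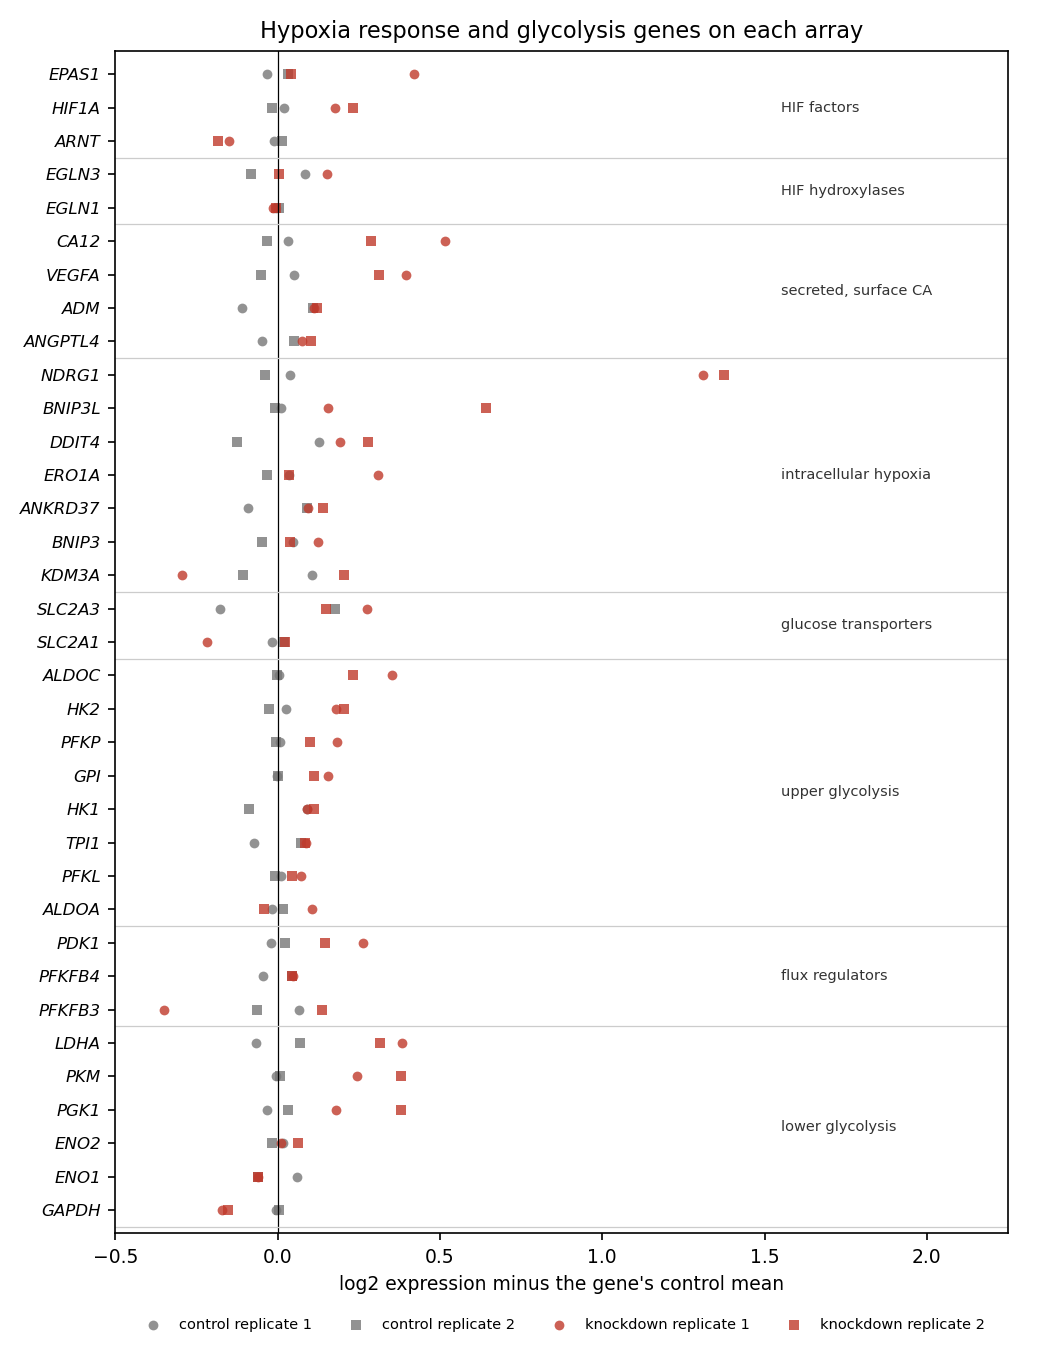
Log2 expression of each measured member on each of the 4 arrays, drawn as the distance from that gene's control mean (horizontal axis), with genes grouped by role and ordered by difference within a role. Grey points are the control arrays and red points the knockdown arrays; circles are replicate 1 and squares replicate 2. NDRG1 lies 1.31 and 1.37 above its control mean, while KDM3A and PFKFB3 have 1 knockdown array on each side.

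None of the 3 HIF subunit genes passed the test over all genes. HIF1A, the alpha subunit found in most cells, read 10.78 and 10.74 in the controls and 10.94 and 10.99 in the knockdown arrays. Both knockdown values lay above both controls, but the log2 difference of 0.20 did not pass (SE 0.094, limma adjusted p = 0.395). EPAS1, which encodes the HIF-2 alpha subunit, read 10.05 and 10.11 in control and 10.50 and 10.12 in knockdown cells. Knockdown replicate 1 was high and replicate 2 lay beside the controls, and the difference was 0.23 with all arrays (SE 0.143), 0.42 without replicate 2 and 0.042 without replicate 1. ARNT, the beta subunit with which both alpha subunits pair, read 8.95 and 8.97 in control and 8.81 and 8.78 in knockdown cells. Its groups did not overlap and the knockdown arrays were the lower ones, by -0.17 in log2 (SE 0.093, limma adjusted p = 0.471).

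Neither measured prolyl hydroxylase differed beyond its spread. EGLN1 (PHD2), the main hydroxylase of HIF alpha at normal oxygen, read 8.96 and 8.97 in control and 8.95 and 8.96 in knockdown cells. Its log2 difference was -0.010 with a 95% interval from -0.23 to 0.21. EGLN3 (PHD3), a hydroxylase that HIF itself induces, read 6.40 and 6.24 in control and 6.47 and 6.33 in knockdown cells, with overlapping groups and an interval from -0.19 to 0.35. Among 11 measured genes of the oxygen-sensing machinery outside the members, none passed over all genes, 3 had a higher and 8 a lower mean, and the median was -0.036. Those with the smallest p were CREBBP, a HIF coactivator (log2 difference -0.36, SE 0.102), HIF1AN, the asparagine hydroxylase that blocks coactivator binding (-0.31, SE 0.119), and CITED2, a competitor of HIF for that coactivator (-0.28, SE 0.121). All 3 had non-overlapping groups, with limma adjusted p-values from 0.217 to 0.368. Of the 11 genes, 5 were lower and 1 higher without overlap, against 23% and 22.5% of all genes.

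The 4 measured genes of secreted factors and surface carbonic anhydrases all had both knockdown arrays above both controls in the deposited values. Of all genes, 22.5% did so. With equal array medians ADM and ANGPTL4 no longer did, and with quantile normalization ANGPTL4 no longer did. VEGFA, the growth factor that drives vessel growth, read 8.26 and 8.16 in control and 8.60 and 8.52 in knockdown cells. The log2 difference of 0.35 is 27.7% on the linear scale (95% interval 0.11 to 0.60 in log2, limma adjusted p = 0.216). CA12, a membrane carbonic anhydrase that helps dispose of acid, read 8.09 and 8.02 in control and 8.57 and 8.34 in knockdown cells. Its difference of 0.40 (95% interval 0.12 to 0.68, limma adjusted p = 0.217) was 0.51 without knockdown replicate 2 and 0.29 without knockdown replicate 1. ADM, which encodes the vasodilator peptide adrenomedullin, read 7.28 and 7.50 in control and 7.50 and 7.51 in knockdown cells, so that the groups barely separated. ANGPTL4, an inhibitor of lipoprotein lipase, lay at 0.089 (95% interval -0.15 to 0.32).

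NDRG1 encodes a cytoplasmic protein that hypoxia and other stresses induce and that has been studied as a suppressor of metastasis. It read 8.53 and 8.45 in the controls and 9.80 and 9.86 in the knockdown arrays. The gap between the groups was far wider than the spread within either, and the rise was 2.54-fold (log2 difference 1.34, SE 0.096, 95% interval 1.11 to 1.58, limma adjusted p = 0.0164). NDRG1 ranked number 8 of all genes by p and number 32 by size of rise. Leaving out 1 array moved the difference only between 1.30 and 1.38, but the adjusted p was 0.465 without control replicate 1 and 0.382 without control replicate 2, where no gene passed. Its 3 paralogs, of the same protein family, did not pass. NDRG2 lay at 0.20 (SE 0.101) and NDRG3 at 0.24 (SE 0.142). NDRG4 read 7.69 and 7.74 in control and 6.78 and 8.13 in knockdown cells, on either side of the controls.

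**Figure D3:**
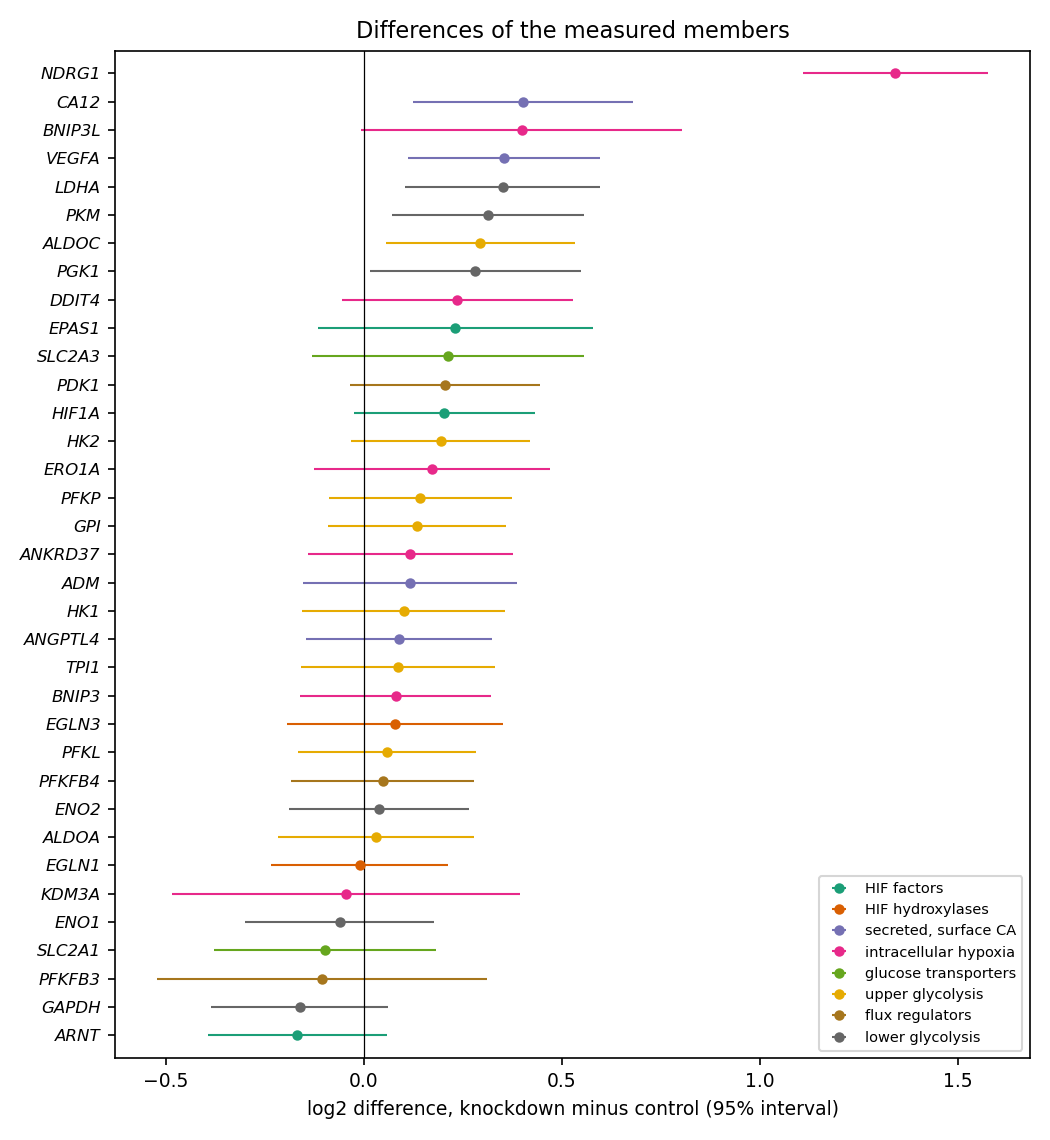
Log2 difference between knockdown and control means of the 35 measured members, from the highest to the lowest, with 95% intervals from limma and colours by role. The interval of NDRG1, 1.11 to 1.58, lies apart from those of all other members, and the intervals of 7 members lie above 0.

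The other intracellular members of the hypoxia response varied between the knockdown arrays more than between the groups in several cases. BNIP3L (NIX), a receptor for the removal of mitochondria by autophagy, read 8.73 and 8.71 in control and 8.87 and 9.36 in knockdown cells. Both knockdown arrays were high, replicate 2 far more so, and the difference was 0.64 without replicate 1 and 0.15 without replicate 2 (0.40 with all arrays, limma adjusted p = 0.356). Its paralog BNIP3, with the same role, read 10.53 and 10.43 in control and 10.60 and 10.52 in knockdown cells, with overlapping groups. RefSeq names 46 pseudogenes after BNIP3, whose transcripts its probe could share. KDM3A, a histone demethylase induced by HIF, read 7.00 and 6.78 in control and 6.59 and 7.09 in knockdown cells, with 1 knockdown array below and 1 above both controls. DDIT4 (REDD1), an inhibitor of mTOR signalling, read 5.29 and 5.04 in control and 5.36 and 5.44 in knockdown cells (log2 difference 0.24, limma adjusted p = 0.434). ERO1A, an oxidase of the endoplasmic reticulum that forms disulfide bonds, lay at 0.31 above its control mean in knockdown replicate 1 and at 0.034 in replicate 2. ANKRD37, an ankyrin repeat gene induced by HIF, lay at 0.12 (95% interval -0.14 to 0.38).

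**Figure D4:**
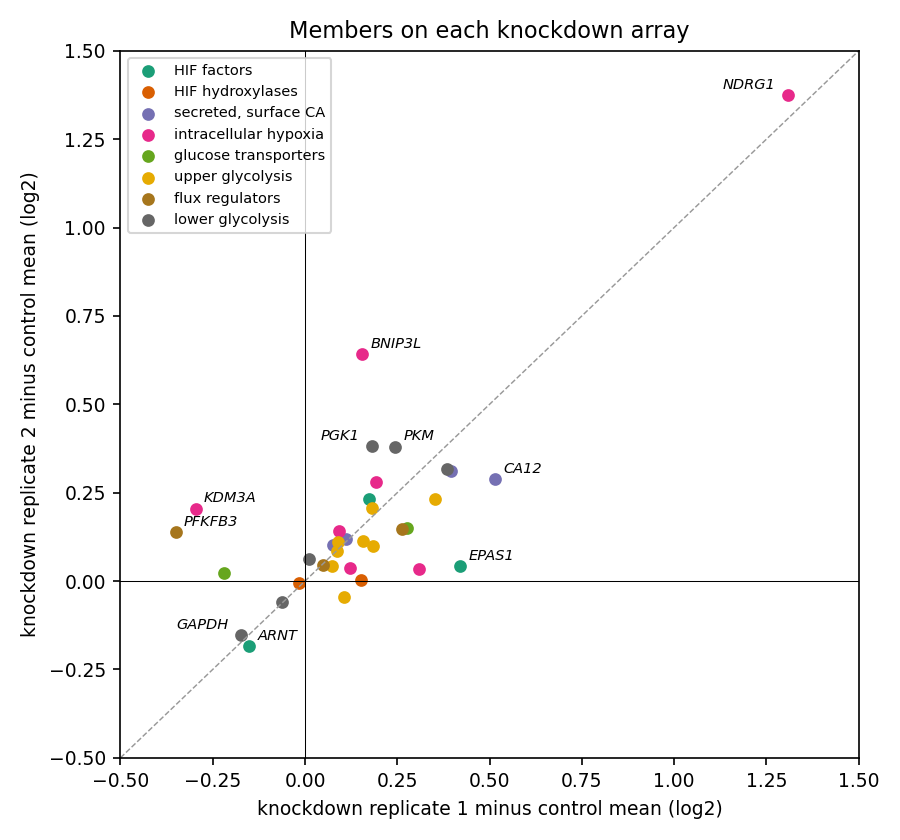
Each measured member as a point, with its log2 distance from the control mean in knockdown replicate 1 (horizontal axis) and in knockdown replicate 2 (vertical axis), coloured by role; the dashed line marks equal values. Both axes share the same control mean. NDRG1 lies near the line at 1.31 and 1.37, BNIP3L lies above it at 0.15 and 0.64, and EPAS1 below it at 0.42 and 0.042.

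Over the members, knockdown replicate 1 lay above both controls for 26 genes (74.3%) and replicate 2 for 25 (71.4%), against 42.8% and 36.4% of all genes. The median distance of the members from the control mean was 0.15 in replicate 1 and 0.11 in replicate 2. For 10 of the 35 members (28.6%) the knockdown arrays lay further apart from each other than the group means did, against 56.6% of all genes. Over all genes, the difference between the arrays of a group had an SD of 0.265 in the knockdown group and 0.154 in the control group.

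Glucose enters the cell through transporters of the SLC2A family. SLC2A1 (GLUT1), the transporter of most growing cells, read 8.21 and 8.25 in control and 8.01 and 8.25 in knockdown cells. Knockdown replicate 1 was low and replicate 2 lay at the level of control replicate 2, for a log2 difference of -0.099 (95% interval -0.38 to 0.18). SLC2A3 (GLUT3), a high-affinity transporter, read 5.00 and 5.36 in control and 5.46 and 5.33 in knockdown cells, with overlapping groups and a difference of 0.21 (limma adjusted p = 0.558). SLC2A2 (GLUT2), the transporter of hepatocytes, is not a member but is the gene with the smallest p among 24 measured isozymes and pyruvate-handling genes outside the list. It read 4.61 and 4.61 in control and 5.73 and 6.67 in knockdown cells. Its difference of 1.59 did not pass (SE 0.284, limma adjusted p = 0.118), with control values not far above the lower quartile of all probes.

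All 8 listed genes of upper glycolysis had a higher mean in knockdown cells, with ALDOA at -0.0018 once array medians were set equal. The deposited values gave differences from 0.031 to 0.29 and a median of 0.12. HK1 and HK2 are the hexokinases that trap glucose in the cell. HK1 read 4.48 and 4.31 in control and 4.48 and 4.51 in knockdown cells, close to the lower quartile, and its groups overlapped. HK2, the hexokinase that HIF induces, read 7.30 and 7.25 in control and 7.46 and 7.48 in knockdown cells (log2 difference 0.19, SE 0.093, limma adjusted p = 0.412), with no overlap.

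Phosphofructokinase commits the sugar to glycolysis. Its liver form PFKL read 8.02 and 8.003 in control and 8.09 and 8.05 in knockdown cells, and its platelet form PFKP 4.67 and 4.66 against 4.85 and 4.77. In both the groups were apart, but the 95% intervals of the differences, 0.057 and 0.14, held 0. The PFKP probe read below the array medians, among the dimmest 40% of genes. Aldolase splits the sugar. ALDOC, the form known from brain, read 6.82 and 6.82 in control and 7.17 and 7.05 in knockdown cells, a difference of 0.29 (95% interval 0.055 to 0.53, limma adjusted p = 0.269). ALDOA, the form of muscle and most tumour cells, read 8.91 and 8.94 in control and 9.03 and 8.88 in knockdown cells, with a knockdown array on each side of the controls. GPI, which interconverts the hexose phosphates, lay at 0.13 (95% interval -0.091 to 0.36). TPI1, which interconverts the triose phosphates, lay at 0.086 (95% interval -0.16 to 0.33). Its second probe read 9.60 and 9.72 in control and 9.79 and 9.79 in knockdown cells, also with both knockdown arrays above the controls. With equal array medians or quantile normalization, the first TPI1 probe no longer had both knockdown arrays above both controls.

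Among the genes that regulate the flux, PFKFB3 and PFKFB4 make the activator of phosphofructokinase. PFKFB3 read 8.49 and 8.37 in control and 8.08 and 8.57 in knockdown cells, below both controls in replicate 1 and above both in replicate 2. PFKFB4 read 5.27 and 5.36 in control and 5.36 and 5.36 in knockdown cells. PDK1, a kinase that inhibits pyruvate dehydrogenase, read 6.08 and 6.12 in control and 6.36 and 6.24 in knockdown cells (log2 difference 0.21, SE 0.099, limma adjusted p = 0.41). Its paralog PDK2, outside the list, read 6.24 and 6.48 in control and 6.87 and 7.15 in knockdown cells (0.65, SE 0.14, limma adjusted p = 0.148). MPC2, a subunit of the carrier that brings pyruvate into mitochondria, lay at 0.29 (SE 0.099). Of the 24 genes of that outside list 16 had a higher mean, and none passed over all genes. At an unadjusted p under 0.05 in limma 3 were higher and 1 lower, where 6.25% of all genes were higher and 8.04% lower.

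In lower glycolysis 4 of 6 measured genes had a higher mean and 2 a lower one. LDHA, which reduces pyruvate to lactate, read 10.65 and 10.79 in control and 11.10 and 11.03 in knockdown cells. The gap was wider than the spread within the groups, at 27.4% on the linear scale (log2 difference 0.35, 95% interval 0.10 to 0.60, limma adjusted p = 0.222). PKM, the pyruvate kinase gene of tumour cells, read 10.79 and 10.80 in control and 11.04 and 11.18 in knockdown cells, or 24.2% higher (log2 difference 0.31, 95% interval 0.070 to 0.55, limma adjusted p = 0.254). PGK1, which makes ATP from bisphosphoglycerate, read 8.85 and 8.91 in control and 9.06 and 9.26 in knockdown cells, or 21.5% higher (0.28, 95% interval 0.014 to 0.55, limma adjusted p = 0.328). The PGK1 difference was 0.38 without knockdown replicate 1 and 0.18 without replicate 2.

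GAPDH, the dehydrogenase often used as a reference gene, read 12.65 and 12.66 in control and 12.48 and 12.50 in knockdown cells. Both knockdown arrays lay below both controls, and the log2 difference of -0.16 did not pass (SE 0.092, limma adjusted p = 0.484). ENO1, the main enolase, read 11.88 and 11.76 in control and 11.76 and 11.76 in knockdown cells, and ENO2, the enolase of neurons, 5.45 and 5.41 against 5.44 and 5.49. The groups overlapped in both enolases. RefSeq names 65 pseudogenes after GAPDH, 6 after LDHA, 5 after PKM, 4 after ENO1 and 2 after PGK1. Outside lower glycolysis it names, among others, 4 after TPI1, 3 after SLC2A3, 2 after ALDOA and 2 after PDK1. The probes of these genes may share transcripts with near-identical copies, and their values are uncertain to that extent.

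The promoters of LDHA, PGK1 and ALDOC are shown because these members were higher at an unadjusted p under 0.05 and their windows hold the hypoxia response element core ACGTG. GAPDH is shown beside them as a member that read lower and holds the same letters. The windows run from 250 bases before to 50 bases after the RefSeq transcription start on GRCh38.p14, on the strand of the gene, with ACGTG or its reverse complement in capitals. They are chr11:18394313-18394612 (plus strand) for LDHA, chrX:78103998-78104297 (plus) for PGK1, chr17:28576846-28577145 (minus) for ALDOC and chr12:6535014-6535313 (plus) for GAPDH.
LDHA: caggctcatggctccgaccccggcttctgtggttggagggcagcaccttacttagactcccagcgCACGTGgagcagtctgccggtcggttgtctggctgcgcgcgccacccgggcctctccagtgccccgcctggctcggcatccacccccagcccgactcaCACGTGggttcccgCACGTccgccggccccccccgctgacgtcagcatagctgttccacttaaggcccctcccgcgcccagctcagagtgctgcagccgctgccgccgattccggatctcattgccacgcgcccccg
PGK1: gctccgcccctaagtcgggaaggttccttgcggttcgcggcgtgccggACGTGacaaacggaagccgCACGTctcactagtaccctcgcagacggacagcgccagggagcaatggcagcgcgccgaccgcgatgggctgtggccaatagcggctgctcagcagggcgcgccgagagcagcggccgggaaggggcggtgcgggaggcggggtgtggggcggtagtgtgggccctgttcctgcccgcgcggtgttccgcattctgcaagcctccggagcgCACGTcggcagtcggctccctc
ALDOC: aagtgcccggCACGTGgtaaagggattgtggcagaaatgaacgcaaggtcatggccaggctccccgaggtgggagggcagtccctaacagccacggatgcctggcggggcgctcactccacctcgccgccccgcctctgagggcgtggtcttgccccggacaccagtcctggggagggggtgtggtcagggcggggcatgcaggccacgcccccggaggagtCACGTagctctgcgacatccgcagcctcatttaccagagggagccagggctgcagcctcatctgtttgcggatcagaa
GAPDH: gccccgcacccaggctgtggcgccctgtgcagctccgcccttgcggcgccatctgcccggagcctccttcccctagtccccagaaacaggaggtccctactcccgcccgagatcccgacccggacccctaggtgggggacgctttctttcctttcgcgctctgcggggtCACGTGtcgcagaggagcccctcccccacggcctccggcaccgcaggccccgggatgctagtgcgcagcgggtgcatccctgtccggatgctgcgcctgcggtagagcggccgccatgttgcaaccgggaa
The LDHA window holds 3 such places, of which 2 are the palindrome CACGTG, which reads as a core on both strands and also spells an E-box. PGK1 holds 3, ALDOC 2 and GAPDH 1. The place in GAPDH and the first in ALDOC are also the palindrome CACGTG.

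RefSeq windows were found for 34 of the 38 members, 56 windows in all, since a gene can have several starts. NDRG1, VEGFA, BNIP3L and SLC2A3 had none in the table. On either strand, 23 of the 56 windows held ACGTG (41.1%), against 21.4% of all 35116 windows. The related core GCGTG was found in 27 (48.2%), against 36.5% of all windows. The members were listed as hypoxia and glycolysis genes, so a high share of these letters is a description of the list. None of the member windows held the CArG box of SRF, which 1.29% of all windows held. Of the measured members with a window, 18 had ACGTG in at least 1 window, with a median log2 difference of 0.13 and 15 higher, and 13 had none, with a median of 0.078 and 9 higher. The members with an unadjusted p under 0.05 were 3 of the 18 (LDHA, PGK1 and ALDOC) and 2 of the 13 (CA12 and PKM).

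**Figure D5:**
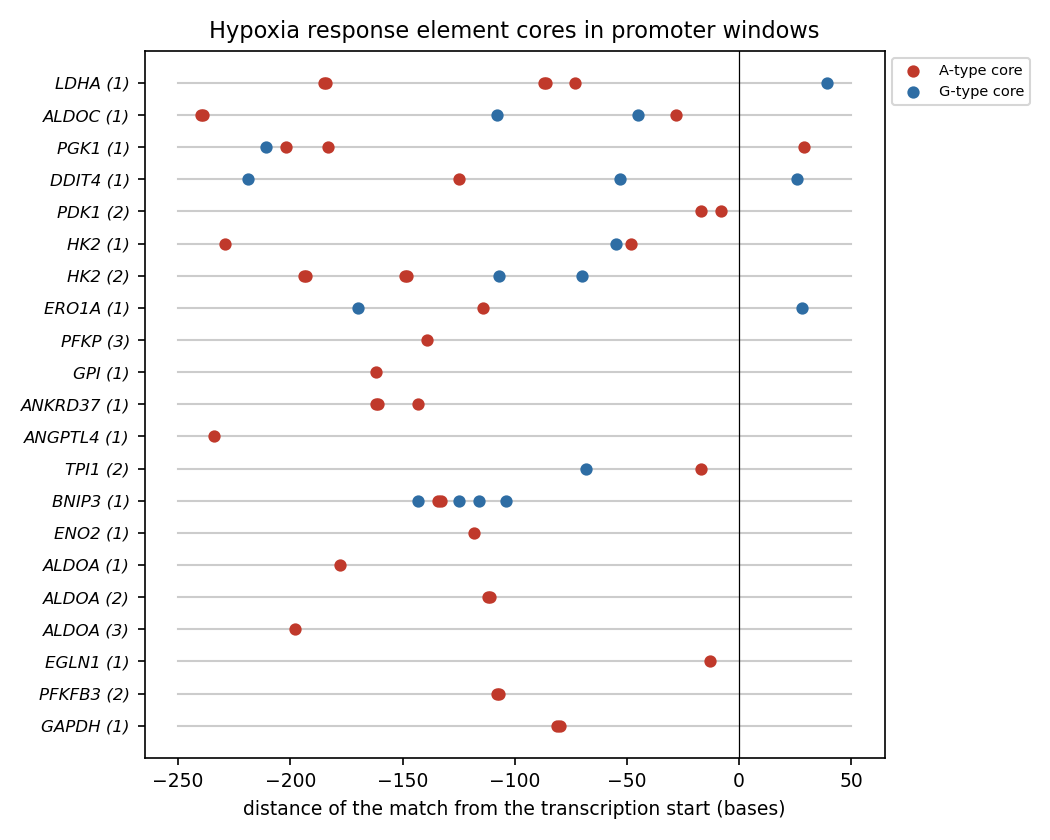
Positions of the hypoxia response element cores in the promoter windows of measured members that hold ACGTG, as the distance in bases from the transcription start (horizontal axis, 0 at the start). Each grey line is a window (the number in brackets counts a gene's windows), red points are ACGTG and blue points GCGTG on either strand, and genes run from the highest log2 difference (LDHA, 0.35) to the lowest (GAPDH, -0.16).

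Hypoxia-inducible genes outside the list lay on both sides of 0. Of 35 measured, 23 had a higher and 12 a lower mean, and none passed over all genes. At an unadjusted p under 0.05 in limma 6 were higher and 7 lower, where 6.25% of all genes were higher and 8.04% lower. PPP1R3C, which targets a phosphatase to glycogen, read 5.07 and 5.30 in control and 6.04 and 6.52 in knockdown cells (log2 difference 1.09, SE 0.177, limma adjusted p = 0.0986). LOX, the collagen cross-linking oxidase, read 9.21 and 9.07 in control and 8.60 and 8.45 in knockdown cells (-0.61, SE 0.108, limma adjusted p = 0.116). IGFBP3, which binds insulin-like growth factors, lay at -0.46 (SE 0.098, limma adjusted p = 0.146). The median of these 35 genes was 0.12, with quartiles of -0.18 and 0.26, a wider spread than the members' 0.042 to 0.23.

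Gluconeogenesis makes glucose in hepatocytes, and 5 of its 7 measured genes had a higher mean, against 52% of all genes. SLC37A4, the glucose 6-phosphate transporter of the endoplasmic reticulum, read 7.74 and 7.79 in control and 8.03 and 8.13 in knockdown cells (log2 difference 0.32, SE 0.097, limma adjusted p = 0.242). FBP1, the liver fructose bisphosphatase, read 5.53 and 5.57 in control and 5.91 and 5.78 in knockdown cells (0.30, SE 0.1, limma adjusted p = 0.267). FBP2, the muscle form, lay at 0.25 with values below the lower quartile of all probes. None of the 7 passed over all genes.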

How the data were processed

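Total RNA of 4 samples was labelled with biotin and hybridised to 1-colour whole-transcript arrays, 1 array per sample. The authors deposited log2 values for 33297 probes; Partek is named in the submitters' processing notes, with background correction and normalization not given in the sources used here. That values are log2 was read from their range of 1.03 to 13.65. Probes were named from the platform annotation (19460 list 1 gene), with symbols updated through Entrez identifiers and the RefSeq gene table (19429 found), giving 18417 genes.

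The test over all genes used R 4.3.3 and limma 3.58.1 (lmFit, eBayes, group as the only term, two-sided, Benjamini-Hochberg over all genes, threshold 0.05, 2 residual and 4.12 prior degrees of freedom). The procedure was tested on simulated data. Differences are knockdown minus control; intervals are limma's 95% intervals. The members and gene lists were chosen with earlier results of these data known. Values on every array are given for members past the threshold, the 14 members with the smallest p and paralog pairs, and 3 genes with the smallest p are named from each outside list; ALB and other array values were added after they were seen. Groups and replicate numbers come from the sample titles.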

Additional observations from a re-analysis of the deposited data

How the results depend on the processing

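Alternatives left out dim genes, renormalized the values, changed the probe rule, the variance moderation or the threshold, blocked on the replicate number, or left out 1 array, where the lone array of a group was assumed to vary like the other group. The counts of members higher, at an unadjusted p under 0.05 or with groups apart under these alternatives were added after seeing the data. The number of genes called (32) was 51 with robust eBayes, 144 at an adjusted p under 0.1, 0 without variance moderation (1840 at an unadjusted p under 0.05 in an ordinary linear model) and 93 with the replicate block. The labels do not tie the replicate numbers to a shared day or batch (correlation of the replicate differences over genes -0.067), and NDRG1 was the 1 member called with or without the block. With 1 array left out, 0 to 781 genes were called (without a control array 0, with 866 and 1219 at an unadjusted p under 0.05 in limma), and 0 to 1 members. NDRG1 was also not called without variance moderation (0 members, adjusted p = 0.418). The members' median (0.116) was 0.134 without the dimmest 40% of genes, 0.084 with median normalization, which moved the median of all genes to -0.024, and 0.112 to 0.152 with 1 array left out. Higher members at an unadjusted p under 0.05 in limma (7) numbered 6 with median normalization and 9 with an intensity trend. In these 2 settings 2746 and 2718 of all genes had such a p in either direction, against 2632 in the main fit. Lower members at an unadjusted p under 0.05 (none) numbered 1 with an intensity trend (GAPDH) and 2 without moderation (ARNT, GAPDH). Members with both knockdown arrays below both controls (2) numbered 4 with median normalization, against 28.4% of all genes. With 1 array left out, the remaining knockdown arrays lay below the remaining controls for 3 to 7 members, against 32.4% to 40.1% of all genes. They lay above for 22 to 26 members, against 32.7% to 42.8% of all genes. The direction turned for 6 members near 0: EGLN1 was 0.016 with quantile normalization and ALDOA -0.0018 with median normalization. With 1 array left out, EGLN3 ranged from -0.0046 to 0.16, KDM3A from -0.30 to 0.21, SLC2A1 from -0.22 to 0.021, ALDOA from -0.044 to 0.10 and PFKFB3 from -0.35 to 0.14. No other member changed direction or call in these alternatives.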
